A study of Danio rerio with 24 samples.

Results

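Chemokines are small secreted proteins that draw leukocytes along a gradient through G protein-coupled receptors, and interleukins are secreted signals between leukocytes and tissue cells that act through paired receptor subunits. Chemokine genes carry the prefixes *ccl* and *cxcl*, their receptors *ccr* and *cxcr*, and the atypical receptors that take up chemokines without passing on the usual signal *ackr*. In the liver, hepatocytes, resident macrophages and duct cells all make such signals during injury, and many fish chemokine genes lie in tandem arrays that have no single mammalian counterpart. The genes described here were every gene of the zebrafish liver table whose symbol begins with *ccl*, *ccr*, *cxcl*, *cxcr*, *ackr* or *il* followed by a digit and that had any count in at least 4 of 18 libraries. This gave 100 genes of 19793 in the table. Another 18 matching genes had counts in too few libraries, among them *cxcr2*, *cxcr5*, *ccr7*, *il4* and *il22*. The 100 genes were 41 chemokine ligands, 16 chemokine receptors including the atypical ones, 16 interleukin ligands and 27 interleukin receptors.

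Bulk RNA was measured in livers dissected from 7 dpf AB larvae, with 40 livers in each pool. The labels and the methods of the study give 7 dpf, while its results text gives 5 dpf for these livers. The 4 WT, 4 overfed and 4 EtOH libraries came from WT animals, and 6 mtm libraries came from mutants of *mtm1*, the gene of the phosphoinositide phosphatase myotubularin. In the study mtm denotes larvae homozygous for a loss-of-function allele (Zf711), and the labels of these pools say only mtm mutant. For the overfed group each meal from day 5 until day 7 was enlarged 6-fold, and the EtOH group spent 32 hours in ethanol at 2% before the livers were taken. Of the mtm libraries, 3 (1, 2 and 3) carry no resubmission label and are called the first submission here. The other 3 (R1, R2 and R3) carry resubmission labels, with an earlier date on R1 than on R2 and R3. Nothing states whether the resubmitted libraries are new pools, and the methods give 4 to 5 replicates per group, where mtm has 6 libraries. The p-values therefore measure the spread between these libraries, and may not measure that between pools. The *abcb11b* livers of the series were not used here. Library totals ran from 8919274 to 20582311 estimated counts, and genes with a count from 12957 (mtm R2) to 16609. As a check of the labels, *mtm1* stood at 3.23 to 7.92 CPM in WT and at 0.159 to 2.38 CPM in mtm libraries, and all 6 mtm libraries were below all 4 WT libraries (p = 0.00952 in an exact permutation test, two-sided). CPM are counts scaled to a common library total after TMM scaling, a correction for differences in composition, and are compared between libraries only within a gene, since no gene lengths were used. Hepatocyte genes were abundant in all libraries, with summed levels of 208897 to 352918 CPM in WT and 104611 to 178891 CPM in EtOH. In mtm they were 212885 CPM in mtm 1 and 38951 to 87860 CPM in the other 5 libraries, so that all EtOH libraries and 5 of 6 mtm libraries were below all WT libraries.

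The filter of the study, at least 5 reads in at least 15 of the 18 libraries, kept 11489 genes, of which 47 were chemokine or interleukin genes (20 chemokine ligands, 8 chemokine receptors, 4 interleukin ligands and 15 interleukin receptors). These 47 genes are described first. The other 53, which include *il6*, *il10* and *ccr2*, were tested in a fit that kept every gene with a count in at least 4 libraries (17493 genes) and follow further on. A gene was called when its Benjamini-Hochberg adjusted p in edgeR's quasi-likelihood test, adjusted over all genes of the fit, was under 0.05. In mtm livers 20 of the 47 genes were called higher than in WT and 0 lower (1 lower at an unadjusted p under 0.05, and 1 lower by DESeq2). Over all 11489 genes 10.1% were called higher and 8.59% lower. In EtOH livers 10 of 47 were called higher and 0 lower (0 lower at an unadjusted p under 0.05, and 0 by DESeq2), where 4.66% of all genes were called higher and 2.70% lower. At an unadjusted p under 0.05 the counts higher were closer, 23 of 47 in mtm and 22 of 47 in EtOH, and DESeq2 called 23 and 17 higher. In overfed livers 0 of 47 were called in either direction, as were 0% of all genes. At an unadjusted p under 0.05, 0 of the 47 genes were higher and 1 was lower in overfed livers, against 493 of all genes in either direction, and DESeq2 called 0 of the 47. At the same threshold 3490 of all genes differed in mtm, 2386 in EtOH and 2641 between mtm and EtOH, in either direction.

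Median log2 fold changes over these 47 genes were 1.07 in mtm livers, 0.93 in EtOH livers and -0.16 in overfed livers, where the medians of all genes were 0.01, -0.03 and -0.04. These 3 comparisons share the same 4 WT libraries. Values written with ± below are log2 fold changes and their standard errors (SE), and those in CPM are levels. Fold changes were positive for 37 of 47 genes in mtm and for 38 of 47 in EtOH. By role, 10 of 20 chemokine ligands were called higher in mtm, 1 of 8 chemokine receptors, 3 of 4 interleukin ligands and 6 of 15 interleukin receptors. In EtOH the counts were 5 of 20, 0 of 8, 1 of 4 and 4 of 15. With the further limit of a log2 fold change above 2, 14 genes stayed above it in mtm (4.25% of all genes) and 7 in EtOH (2.01%). Without WT replicate 2 or WT replicate 3 the count in mtm fell from 20 to 12 and that in EtOH from 10 to 5.

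**Figure D1:**
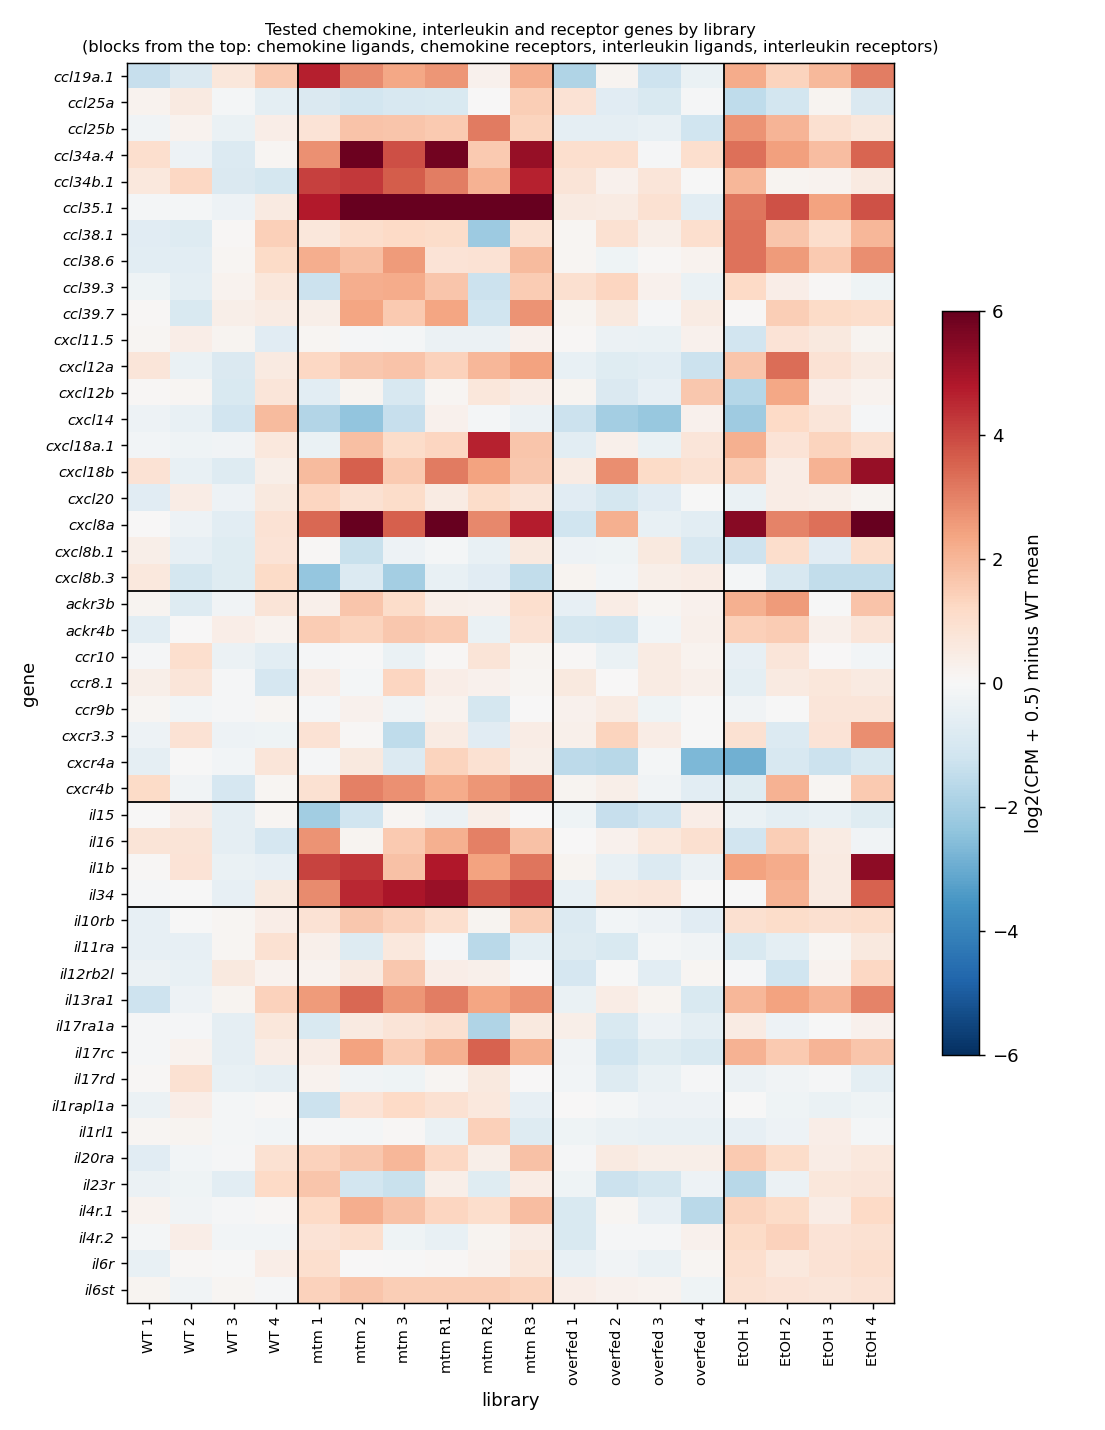
Heat map of the 47 chemokine, interleukin and receptor genes that passed the filter (rows, grouped by role) in 18 libraries (columns). Colour gives log2(CPM + 0.5) minus the mean of the 4 WT libraries, from -6 to 6, with larger differences drawn at the end of the scale. The red rows that run through all 6 mtm columns include *ccl35.1*, *il34* and *il13ra1*. In overfed livers 0 of 47 genes were called, and overfed 2 was above all WT libraries for *cxcl18b* (37.2 CPM) and *cxcl8a* (7.28 CPM).

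The heat map of the 47 genes shows how these differences lay across libraries. In 13 of the 47 genes every mtm library stood above every WT library and in 0 below (6.88% and 6.58% of all genes). In EtOH the groups did not overlap in 13 genes that were higher and 1 that was lower (8.06% and 7.63%), and in overfed livers in 0 higher and 2 lower (2.37% and 1.97%). The 20 genes called higher in mtm were the ligands *ccl19a.1*, *ccl25b*, *ccl34a.4*, *ccl34b.1*, *ccl35.1*, *ccl38.6*, *cxcl8a*, *cxcl18a.1*, *cxcl18b*, *cxcl20*, *il1b*, *il16* and *il34* and the receptors *cxcr4b*, *il4r.1*, *il6st*, *il10rb*, *il13ra1*, *il17rc* and *il20ra*. The 10 genes called higher in EtOH were the ligands *ccl25b*, *ccl34a.4*, *ccl35.1*, *ccl38.6*, *cxcl8a* and *il1b* and the receptors *il6st*, *il10rb*, *il13ra1* and *il17rc*. Both lists were set against the same WT libraries, and a gene called in one comparison alone is not thereby shown to differ between mtm and EtOH.

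Among the CC chemokine ligands, the largest difference was that of *ccl35.1*, a fish chemokine of the CC class. *ccl35.1* stood at 1.69, 1.66, 1.37 and 2.9 CPM in WT libraries 1 to 4, at 63.4 to 611 with a median of 406 in the mtm libraries, at 2.91, 2.84, 3.92 and 1.01 in the overfed libraries and at 21.4, 32.9, 12.2 and 32.4 in the EtOH libraries. All mtm and all EtOH libraries stood above all WT libraries, and mtm 1, at 63.4 CPM, lay apart from the other 5 mtm libraries (295 to 611 CPM). The log2 fold change was 7.71 ± 0.72 (SE, edgeR adjusted p = 3.4e-06) in mtm and 3.7 ± 0.60 (SE, edgeR adjusted p = 0.00118) in EtOH, and the direct difference between mtm and EtOH was 4.01 ± 0.60 (SE, edgeR adjusted p = 0.00233). It was called in mtm with each library left out, and with either submission of mtm libraries alone (log2 fold change 7.43 with the first and 7.83 with the resubmitted libraries). *ccl34a.4* and *ccl34b.1*, of another fish CC family, came next. *ccl34a.4* stood at 1.49, 0.310, 0.0718 and 0.596 CPM in WT libraries 1 to 4, at 2.47 to 58 with a median of 25.4 in the mtm libraries, at 1.51, 1.52, 0.4656 and 1.52 in the overfed libraries and at 9.43, 5.02, 3.14 and 10.7 in the EtOH libraries. The mtm libraries, all of them above WT, differed among themselves by over an order of magnitude, with mtm R2 the lowest. Its log2 fold change was 5.92 ± 0.96 (SE, edgeR adjusted p = 4.0e-04) in mtm and 3.54 ± 0.89 (SE, edgeR adjusted p = 0.0216) in EtOH, the latter lost without WT 2, WT 3, WT 4, EtOH 1 or EtOH 4 (adjusted p = 0.0523 to 0.0798). *ccl34b.1* stood at 1.1, 1.97, 0.0718 and 0 CPM in WT libraries 1 to 4, at 3.82 to 24.6 with a median of 14.7 in the mtm libraries, at 1.25, 0.733, 1.2 and 0.505 in the overfed libraries and at 3.61, 0.650, 0.706 and 1.01 in the EtOH libraries. It was called in mtm at 4.17 ± 0.93 (SE, edgeR adjusted p = 0.0043), with all 6 libraries above WT, and not in EtOH (1.13 ± 0.92, adjusted p = 0.537). The direct difference between mtm and EtOH was not called (3.03 ± 0.91, adjusted p = 0.0556). Salmon divides reads that match several near-identical copies, so values of single copies within these tandem families are less certain than those of single genes.

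The remaining called CC ligands were *ccl19a.1*, *ccl25b* and *ccl38.6*. *ccl19a.1* belongs to the family of mammalian CCL19, which guides lymphocytes and dendritic cells through CCR7. *ccl19a.1* stood at 3.9, 5.79, 18 and 34.1 CPM in WT libraries 1 to 4, at 13.4 to 288 with a median of 63.9 in the mtm libraries, at 2.76, 12.4, 4.39 and 8.23 in the overfed libraries and at 52.7, 28.2, 43.9 and 95 in the EtOH libraries. Its mtm range overlapped WT through mtm R2, with a log2 fold change of 2.93 ± 0.79 (SE, edgeR adjusted p = 0.0149), a call lost without WT 1 or WT 2 (adjusted p = 0.0651 to 0.0701). The first mtm submission averaged 142 CPM and the resubmitted one 45.2 CPM. In EtOH *ccl19a.1* was not called, with EtOH 2 inside the WT range. It was called higher in EtOH by DESeq2 and with only the compared groups fitted. *ccl25b* is a homolog of CCL25, the ligand of CCR9 in mammals. *ccl25b* stood at 11.2, 14.9, 9.7 and 16.9 CPM in WT libraries 1 to 4, at 23.4 to 116 with a median of 40.3 in the mtm libraries, at 8.73, 8.8, 9.38 and 5.41 in the overfed libraries and at 86.5, 54.7, 25.6 and 21.1 in the EtOH libraries. All mtm and all EtOH libraries were above WT, and all overfed libraries below, with log2 fold changes of 1.69 ± 0.46 (SE, edgeR adjusted p = 0.0149), 1.72 ± 0.46 (SE, edgeR adjusted p = 0.0306) and -0.73 ± 0.45 (SE, edgeR adjusted p = 1). The mtm call was lost without WT 1, WT 2 or WT 3 (adjusted p = 0.0680 to 0.0785), and the EtOH call without WT 1, WT 2, WT 3, EtOH 1 or EtOH 2 (adjusted p = 0.0523 to 0.135). *ccl38.6* stood at 2.66, 2.69, 4.96 and 10.6 CPM in WT libraries 1 to 4, at 8.2 to 29 with a median of 17.6 in the mtm libraries, at 4.89, 3.62, 4.79 and 5.34 in the overfed libraries and at 47.2, 29.1, 14.4 and 33.4 in the EtOH libraries. This gene was called in mtm (2.02 ± 0.48, adjusted p = 0.00678) and in EtOH (2.76 ± 0.50, adjusted p = 0.00253), with a direct difference that was not called (-0.74 ± 0.42, adjusted p = 0.314). Other CC ligands that passed the filter were not called in any of the 4 comparisons, and they were *ccl25a*, *ccl38.1*, *ccl39.3* and *ccl39.7*.

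Among the CXC ligands, *cxcl8a* encodes one of the zebrafish homologs of interleukin-8, a neutrophil attractant. *cxcl8a* stood at 1.3, 0.931, 0.647 and 2.72 CPM in WT libraries 1 to 4, at 12.4 to 151 with a median of 33.6 in the mtm libraries, at 0.260, 7.28, 0.798 and 0.650 in the overfed libraries and at 77.1, 13.5, 16.8 and 306 in the EtOH libraries. Every mtm and every EtOH library stood above every WT library, EtOH 4 and EtOH 1 were the highest of their group, and overfed 2 was the one overfed library above WT. The log2 fold change was 5.99 ± 1.16 (SE, edgeR adjusted p = 0.00155) in mtm and 5.75 ± 1.17 (SE, edgeR adjusted p = 0.00599) in EtOH, and it was called in both with each library left out. The direct difference was 0.24 ± 0.96 (SE, edgeR adjusted p = 0.912). The related copies *cxcl8b.1* and *cxcl8b.3* were not called in any of the 4 comparisons. *cxcl8b.3* stood at 23.7, 7.03, 8.98 and 33.6 CPM in WT libraries 1 to 4, at 2.57 to 11.1 with a median of 6.68 in the mtm libraries, at 16.7, 13.2, 19.6 and 21 in the overfed libraries and at 13.7, 7.52, 5.18 and 5.03 in the EtOH libraries. The mtm libraries lay in the lower part of the WT range or under it, at a log2 fold change of -1.23 ± 0.50 (SE, edgeR adjusted p = 0.098). It was called lower by DESeq2 (-1.26, adjusted p = 0.0385), without the replicate number in the model (-1.47, adjusted p = 0.0288) and without WT replicate 2 (-1.64, adjusted p = 0.0495). *cxcl8b.1* had a log2 fold change of -0.16 ± 0.60 (adjusted p = 0.897) in mtm and 0.27 ± 0.63 (adjusted p = 0.857) in EtOH.

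*cxcl18b*, *cxcl18a.1* and *cxcl20* were the other called CXC ligands. *cxcl18b* encodes a fish chemokine that attracts neutrophils in zebrafish. *cxcl18b* stood at 9.42, 3.41, 2.66 and 6.47 CPM in WT libraries 1 to 4, at 15.3 to 65.4 with a median of 23.7 in the mtm libraries, at 7.12, 37.2, 11.4 and 9.67 in the overfed libraries and at 15.2, 6.87, 22.7 and 205 in the EtOH libraries. EtOH 4 held by far the highest value and overfed 2 the highest of the overfed libraries, the same pair of libraries that was highest in its group for *cxcl8a*. The log2 fold change was 2.75 ± 0.76 (SE, edgeR adjusted p = 0.0176) in mtm, lost without WT 2, WT 3 or mtm R1 (adjusted p = 0.0510 to 0.0778), and 2.82 ± 0.85 (SE, edgeR adjusted p = 0.0544) in EtOH. *cxcl18a.1* stood at 0.455, 0.414, 0.431 and 1.19 CPM in WT libraries 1 to 4, at 0.322 to 26.3 with a median of 2.54 in the mtm libraries, at 0.208, 0.831, 0.333 and 1.3 in the overfed libraries and at 4.31, 1.39, 2.27 and 1.63 in the EtOH libraries. mtm R2 held the highest value of *cxcl18a.1*, whose log2 fold change in mtm was 2.95 ± 0.99 (SE, edgeR adjusted p = 0.0467) with all libraries and 2.1 without mtm R2 (adjusted p = 0.0543). The call was also lost without any one WT library, mtm 3, mtm R1 or mtm R3 (adjusted p = 0.0548 to 0.174). All EtOH libraries of *cxcl18a.1* were above all WT libraries, without a call, while mtm 1 was below the WT range. *cxcl20* stood at 30.7, 68, 40.3 and 75.4 CPM in WT libraries 1 to 4, at 70.9 to 123 with a median of 101 in the mtm libraries, at 31.6, 23.6, 31.7 and 49.7 in the overfed libraries and at 37.9, 69.4, 64.3 and 56.4 in the EtOH libraries. *cxcl20* rose by a smaller amount, 1.07 ± 0.27 (SE, edgeR adjusted p = 0.0105), in mtm, with mtm R1 inside the WT range. This call was lost without WT 1 or WT 3 (adjusted p = 0.0572 to 0.0662). In EtOH it had a log2 fold change of 0.14 ± 0.28 (adjusted p = 0.826), and the direct difference was 0.93 ± 0.27 (SE, edgeR adjusted p = 0.0447), a call lost without mtm 1, mtm 3, mtm R1 or any one EtOH library (adjusted p = 0.0533 to 0.147). The pair *cxcl12a* and *cxcl12b*, ligands of Cxcr4, was not called. *cxcl12a* stood at 10.1, 4.45, 3.02 and 8.86 CPM in WT libraries 1 to 4, at 15 to 34.2 with a median of 20.1 in the mtm libraries, at 4.31, 3.42, 3.66 and 2.17 in the overfed libraries and at 20.2, 64.8, 11.5 and 8.75 in the EtOH libraries. All mtm libraries were above WT for *cxcl12a*, yet the test gave 1.53 ± 0.57 (adjusted p = 0.0724) in mtm and 1.71 ± 0.58 (adjusted p = 0.0854) in EtOH. *cxcl12a* was called higher in mtm by DESeq2, without the replicate number in the model, with only the compared groups and without WT 4. In EtOH it was called by DESeq2, without the replicate number and without WT 4 or EtOH 4. *cxcl12b* had a log2 fold change of 0.33 ± 0.96 (adjusted p = 0.866) in mtm and 0.93 ± 1.08 (adjusted p = 0.686) in EtOH. *cxcl14* and *cxcl11.5*, the last 2 CXC ligands that passed the filter, were not called either.

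**Figure D2:**
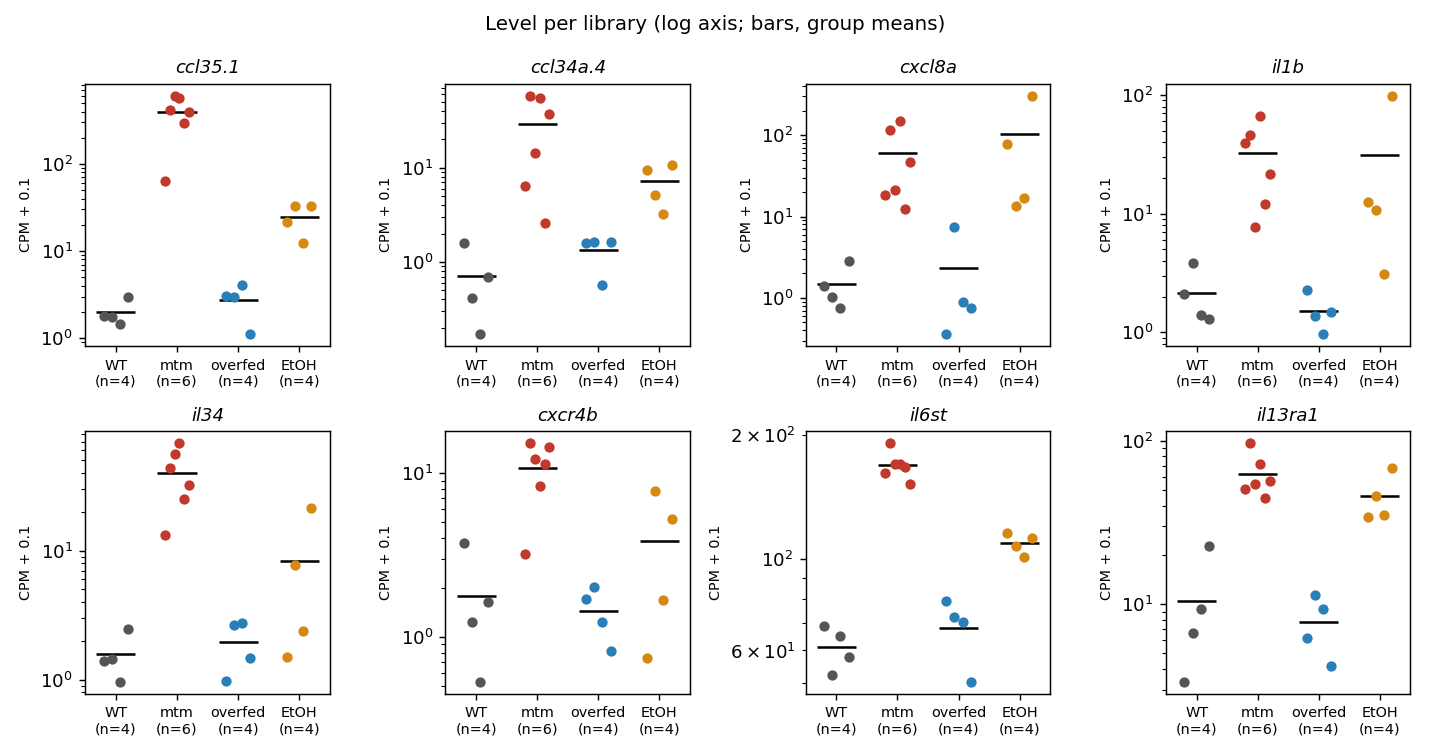
Level of 8 genes in each library, on log axes of CPM + 0.1, with 4 WT, 6 mtm, 4 overfed and 4 EtOH libraries as points and group means as bars. *ccl35.1*, *ccl34a.4*, *cxcl8a*, *il1b*, *il34*, *il6st* and *il13ra1* have every mtm library above every WT library, whereas *cxcr4b* overlaps.

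The panels of level by library also show the interleukin ligands, of which 3 of the 4 that passed the filter were called higher in mtm. *il1b* encodes interleukin-1 beta, an early inflammatory signal of macrophages and neutrophils. *il1b* stood at 2.01, 3.72, 1.29 and 1.19 CPM in WT libraries 1 to 4, at 7.6 to 66.2 with a median of 30.6 in the mtm libraries, at 2.18, 1.27, 0.865 and 1.37 in the overfed libraries and at 12.3, 10.7, 2.98 and 98.9 in the EtOH libraries. All mtm libraries stood above all WT libraries, and EtOH 4 held the highest value of all. The log2 fold change was 4.05 ± 0.74 (SE, edgeR adjusted p = 0.00104) in mtm, called with each library left out, and 2.96 ± 0.79 (SE, edgeR adjusted p = 0.0307) in EtOH, lost without WT 1, WT 3, WT 4 or EtOH 4 (adjusted p = 0.0530 to 0.107). *il34* encodes the interleukin that acts through the receptor Csf1r on macrophages. *il34* stood at 1.3, 1.34, 0.862 and 2.38 CPM in WT libraries 1 to 4, at 13.2 to 67.7 with a median of 37.8 in the mtm libraries, at 0.884, 2.54, 2.66 and 1.37 in the overfed libraries and at 1.4, 7.62, 2.27 and 21.4 in the EtOH libraries. All 6 mtm libraries were above WT, while EtOH 1 and EtOH 3 lay within the WT range. The test gave 5.18 ± 0.72 (SE, edgeR adjusted p = 1.1e-04) in mtm, called with each library left out, 2.06 ± 0.67 (SE, edgeR adjusted p = 0.0755) in EtOH and 3.11 ± 0.69 (SE, edgeR adjusted p = 0.0145) for mtm against EtOH, the last lost without EtOH 1 or EtOH 3 (adjusted p = 0.0563 to 0.0674). The receptor gene *csf1ra*, a macrophage marker, was at 0 to 0.207 CPM in WT and at 0.965 to 9.63 CPM in mtm libraries. Its paralog *csf1rb* was at 0 to 0.287 CPM in WT, at 0.107, 0 and 0 CPM in mtm 1 to 3 and at 1.43, 6.6 and 0.904 CPM in mtm R1 to R3, so that the first submission lay within the WT range and the resubmitted libraries above it. *il16* encodes a precursor of a T cell attractant. *il16* stood at 3.51, 3.52, 1.15 and 0.681 CPM in WT libraries 1 to 4, at 2.15 to 18.8 with a median of 8.75 in the mtm libraries, at 1.92, 2.3, 3.19 and 4.04 in the overfed libraries and at 0.582, 6.13, 2.82 and 1.55 in the EtOH libraries. Its mtm range overlapped WT, and its call (2.16 ± 0.71, adjusted p = 0.0426) was lost on leaving out any one WT library or mtm 1, mtm 3, mtm R1, mtm R2 or mtm R3 (adjusted p = 0.0513 to 0.141). *il15*, a lymphocyte growth signal, was not called (-0.28 ± 0.49 in mtm and -0.59 ± 0.53 in EtOH).

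Of the interleukin receptors, *il6st* encodes gp130, the signalling subunit shared by the receptors of interleukin-6, interleukin-11 and related signals. *il6st* stood at 68.9, 52.2, 65 and 57.9 CPM in WT libraries 1 to 4, at 152 to 191 with a median of 169 in the mtm libraries, at 79, 72.4, 70.1 and 50.2 in the overfed libraries and at 116, 107, 101 and 113 in the EtOH libraries. All mtm libraries stood above all EtOH libraries, and all EtOH libraries above all WT and overfed libraries. The log2 fold change was 1.42 ± 0.19 (SE, edgeR adjusted p = 7.0e-05) in mtm, called with each library left out, and 0.84 ± 0.19 (SE, edgeR adjusted p = 0.0122) in EtOH, lost without WT 2 (adjusted p = 0.0504). The direct difference between mtm and EtOH, 0.58 ± 0.18 (SE, edgeR adjusted p = 0.0647), was not called. Its partner *il6r*, the interleukin-6 binding subunit, had a log2 fold change of 0.46 ± 0.25 (adjusted p = 0.232) in mtm and 0.87 ± 0.26 (adjusted p = 0.0512) in EtOH. *il6r* stood at 29.1, 42.4, 39.9 and 53 CPM in WT libraries 1 to 4, at 39.6 to 81.3 with a median of 44.5 in the mtm libraries, at 29.6, 34.8, 30.7 and 43 in the overfed libraries and at 80.4, 63.4, 72.9 and 82 in the EtOH libraries. All EtOH libraries of *il6r* were above WT, and the mtm libraries overlapped WT.

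*il13ra1* and *il4r.1* encode subunits of the receptors of interleukin-4 and interleukin-13. *il13ra1* stood at 3.25, 6.52, 9.27 and 22.6 CPM in WT libraries 1 to 4, at 44.2 to 96.2 with a median of 55.1 in the mtm libraries, at 6.08, 11.3, 9.24 and 4.12 in the overfed libraries and at 34.1, 45.6, 35.14 and 67.9 in the EtOH libraries. Every mtm and EtOH library was above every WT library, at a log2 fold change of 2.98 ± 0.47 (SE, edgeR adjusted p = 3.0e-04) in mtm and 2.27 ± 0.44 (SE, edgeR adjusted p = 0.00442) in EtOH, and both calls held with each library left out. *il4r.1* stood at 6.11, 4.55, 5.1 and 5.54 CPM in WT libraries 1 to 4, at 11.5 to 25.9 with a median of 16.2 in the mtm libraries, at 2.55, 5.82, 3.59 and 1.37 in the overfed libraries and at 14, 12.3, 7.45 and 12.9 in the EtOH libraries. Here too all mtm and all EtOH libraries were above WT, at 1.58 ± 0.41 (SE, edgeR adjusted p = 0.0116) in mtm and 1.12 ± 0.41 (SE, edgeR adjusted p = 0.115) in EtOH. The mtm call was lost without WT 2 or WT 3 (adjusted p = 0.0550 to 0.0582). *il4r.2*, which lies next to *il4r.1* in the RefSeq gene order, had a log2 fold change of 0.44 ± 0.46 (adjusted p = 0.582) in mtm and 1.22 ± 0.49 (adjusted p = 0.158) in EtOH, and all 4 EtOH libraries (4.71 to 7.25 CPM) were above WT (2.13 to 3.41 CPM).

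*il10rb* encodes a subunit shared by the receptors of interleukin-10 and interleukin-22 in mammals. *il10rb* stood at 39.18, 54.2, 59.4 and 73.9 CPM in WT libraries 1 to 4, at 62.6 to 172 with a median of 128 in the mtm libraries, at 30.7, 49.7, 45.4 and 33.9 in the overfed libraries and at 109, 120.1, 107 and 115 in the EtOH libraries. All EtOH libraries were above WT, while mtm R2 lay inside the WT range, and the log2 fold changes were 1.17 ± 0.27 (SE, edgeR adjusted p = 0.00572) in mtm and 1.02 ± 0.28 (SE, edgeR adjusted p = 0.0327) in EtOH. The EtOH call was lost without WT 1, WT 2, WT 3, EtOH 1, EtOH 2 or EtOH 4 (adjusted p = 0.0624 to 0.127). *il17rc* encodes a subunit of the interleukin-17 receptor. *il17rc* stood at 2.27, 2.9, 1.51 and 3.49 CPM in WT libraries 1 to 4, at 3.54 to 34.1 with a median of 12.3 in the mtm libraries, at 2.08, 0.782, 1.26 and 1.08 in the overfed libraries and at 11.9, 8.17, 11.5 and 8.83 in the EtOH libraries. All mtm and EtOH libraries were above WT and mtm R2 was the highest, at 2.43 ± 0.57 (SE, edgeR adjusted p = 0.0061) in mtm and 2.06 ± 0.56 (SE, edgeR adjusted p = 0.0331) in EtOH, the latter lost without WT 1, WT 2, WT 3, EtOH 1, EtOH 3 or EtOH 4 (adjusted p = 0.0555 to 0.114). The other subunit of that receptor that passed the filter, *il17ra1a*, had a log2 fold change of 0.32 ± 0.51 (adjusted p = 0.742) in mtm and 0.06 ± 0.52 (adjusted p = 0.967) in EtOH. *il20ra* was called in mtm at 1.53 ± 0.41 (SE, edgeR adjusted p = 0.0144), lost without WT 1, WT 2 or WT 3 (adjusted p = 0.0556 to 0.0800), and had a log2 fold change of 1.02 ± 0.41 (adjusted p = 0.156) in EtOH. The 8 interleukin receptors not called in any comparison, besides *il6r*, were *il11ra*, *il12rb2l*, *il17ra1a*, *il17rd*, *il1rapl1a*, *il1rl1*, *il23r* and *il4r.2*, with log2 fold changes in mtm from -0.07 to 0.90.

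Of the chemokine receptors 1 of 8 was called in mtm and 0 of 8 in EtOH, where 10.1% and 4.66% of all genes were called higher. At an unadjusted p under 0.05, 2 of 8 were higher in EtOH, against 2386 of all 11489 genes in either direction. DESeq2 called 2 of 8 higher in mtm and 1 of 8 in EtOH. *cxcr4b*, a Cxcl12 receptor of neutrophils and migrating cells in zebrafish, was the one called receptor of 8. *cxcr4b* stood at 3.64, 1.14, 0.431 and 1.53 CPM in WT libraries 1 to 4, at 3.11 to 15.1 with a median of 11.7 in the mtm libraries, at 1.61, 1.91, 1.13 and 0.722 in the overfed libraries and at 0.640, 7.62, 1.57 and 5.11 in the EtOH libraries. mtm 1 lay inside the WT range and the other 5 mtm libraries above it, and the log2 fold change was 2.6 ± 0.77 (SE, edgeR adjusted p = 0.0258) in mtm and 0.92 ± 0.78 (SE, edgeR adjusted p = 0.559) in EtOH. The mtm call was lost without WT 2, WT 3 or WT 4 (adjusted p = 0.0591 to 0.115). Its paralog *cxcr4a* had a log2 fold change of 0.72 ± 0.94 (adjusted p = 0.67) in mtm and -1.9 ± 0.97 (adjusted p = 0.288) in EtOH. *cxcr4a* stood at 2.08, 3.1, 2.8 and 5.62 CPM in WT libraries 1 to 4, at 1.59 to 8.99 with a median of 4.66 in the mtm libraries, at 0.728, 0.684, 2.86 and 0.0722 in the overfed libraries and at 0, 1.39, 1.02 and 1.47 in the EtOH libraries. All 4 EtOH libraries of *cxcr4a* were below all WT libraries, the one gene of the 47 for which this held, without a call. The atypical receptors *ackr3b*, which takes up Cxcl12, and *ackr4b*, whose mammalian homolog takes up CCL19, CCL21 and CCL25, came close to the threshold. *ackr3b* stood at 4.22, 1.97, 3.09 and 6.64 CPM in WT libraries 1 to 4, at 4.62 to 12.8 with a median of 6.35 in the mtm libraries, at 2.44, 5.08, 4.06 and 4.55 in the overfed libraries and at 18, 23.8, 3.53 and 13.2 in the EtOH libraries. *ackr3b* had a log2 fold change of 1.85 ± 0.56 (adjusted p = 0.053) in EtOH and 0.97 ± 0.53 (adjusted p = 0.24) in mtm. The EtOH difference was called by DESeq2, without the replicate number in the model and without EtOH 3. *ackr4b* had a log2 fold change of 1.26 ± 0.43 (adjusted p = 0.0511) in mtm and 1.1 ± 0.45 (adjusted p = 0.158) in EtOH, and mtm R2 and EtOH 3 lay within the WT range. Settings that called *ackr4b* higher in mtm included DESeq2, no replicate number in the model, the first submission alone, and leaving out mtm R2 or mtm R3. *ccr8.1*, *ccr9b*, *ccr10* and *cxcr3.3* had log2 fold changes between -0.05 and 0.37 in mtm.

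**Figure D3:**
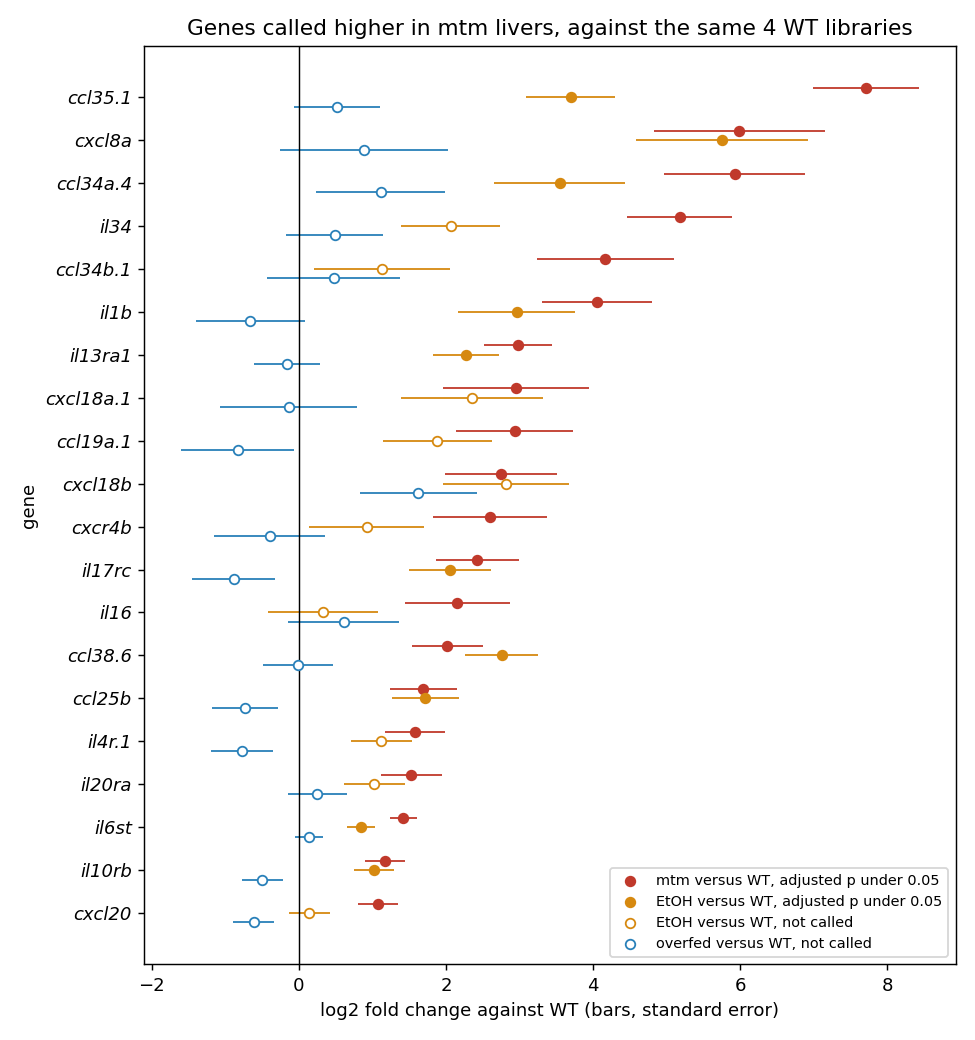
Log2 fold change against WT (x axis, bars are standard errors) of the 20 genes called higher in mtm livers, for mtm, EtOH and overfed livers, which share the 4 WT libraries. Filled points have an adjusted p under 0.05, which held for 20 genes in mtm, 10 in EtOH and 0 in overfed livers.

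The plot of fold changes shows the overfed livers around 0. The overfed value with the smallest unadjusted p was that of *cxcl20*, at -0.61 ± 0.28, and the adjusted p-values of the 47 genes rounded to 1. The largest positive overfed values were those of *cxcl18b* (1.63 ± 0.79) and *ccl34a.4* (1.11 ± 0.88). The genes with no overlap, all 4 overfed libraries below all WT libraries, were *ccl25b* and *il1rl1*, the receptor gene of interleukin-33 in mammals (-0.41 ± 0.43). In the direct comparison of mtm with EtOH livers, 3 of 47 genes were called higher in mtm (*ccl35.1*, *il34* and *cxcl20*) and 0 lower (1 lower at an unadjusted p under 0.05, and 0 by DESeq2), against 2.87% and 4.20% of all genes. In 5 of the 47 genes every mtm library was above every EtOH library (3.65% of all genes), and in 0 below (4.65%). The count of 3 was 1 without EtOH 1 or EtOH 3, 5 without mtm R2 and 0 when only the compared groups were fitted.

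The 53 genes below the filter held some of the largest fitted differences, and a group near 0 makes such fold changes large and uncertain. In the fit of 17493 genes, 27 of all 100 chemokine and interleukin genes were called higher in mtm and 1 lower (6.72% and 6.12% of all genes), 12 higher and 1 lower in EtOH (2.72% and 1.73%), 6 higher and 1 lower in mtm against EtOH (1.77% and 2.43%), and 0 in overfed livers (0%). At an unadjusted p under 0.05, 3 of the 100 were higher and 0 lower in overfed livers, against 612 of the 17493 genes in either direction. Of the 53 genes alone 9 were called higher and 1 lower in mtm. The one lower gene was *ccl39.2*, a fish CC chemokine, named here after its values were seen, as were *ccl35.2*, *ccl20a.3*, *cxcr3.2*, *il1fma*, *il17rel*, *il10ra*, *il17c* and *il21*. *ccl39.2* stood at 25.5, 5.69, 19.3 and 6.05 CPM in WT libraries 1 to 4 and at 22, 27.8, 23.1 and 20.5 CPM in the overfed libraries. It had no count in any of the 6 mtm libraries and was at 0.175, 1.02, 0.157 and 0.387 CPM in the EtOH libraries, all of them below WT. Against a floor of 3 counts over the mtm group (0.0320 CPM), the WT mean of 14.1 CPM put it at least 441-fold lower in mtm (edgeR adjusted p = 1.3e-05). In EtOH the log2 fold change was -5.07 ± 0.77 (SE, edgeR adjusted p = 0.00203). By the same floor, which bounds the mtm side only, the mean of the EtOH libraries put mtm at least 13.6-fold below EtOH (edgeR adjusted p = 0.0139). These calls held with each library left out, but that of mtm against EtOH was lost with the first mtm submission alone (edgeR adjusted p = 0.0530). In the RefSeq gene order *ccl39.2* is the next protein-coding gene to *ccl35.1*, the ligand with the largest fitted rise in mtm, with *ccl39.1* on its other side (0.48 ± 1.48 in mtm). Among intestinal marker genes that passed the filter, 2 of 8 were called lower in mtm and 0 of 8 in EtOH (8.59% and 2.7% of all genes that passed it). Their median log2 fold changes were -2.28 in mtm and 0.05 in EtOH. The intestinal marker genes summed to 87.8 to 1272 CPM in WT, 196 to 620 CPM in EtOH, 10.1 to 20.9 CPM in 4 mtm libraries, 146 CPM in mtm R2 and 601 CPM in mtm R3. Their part in the *ccl39.2* result was not tested.

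**Figure D4:**
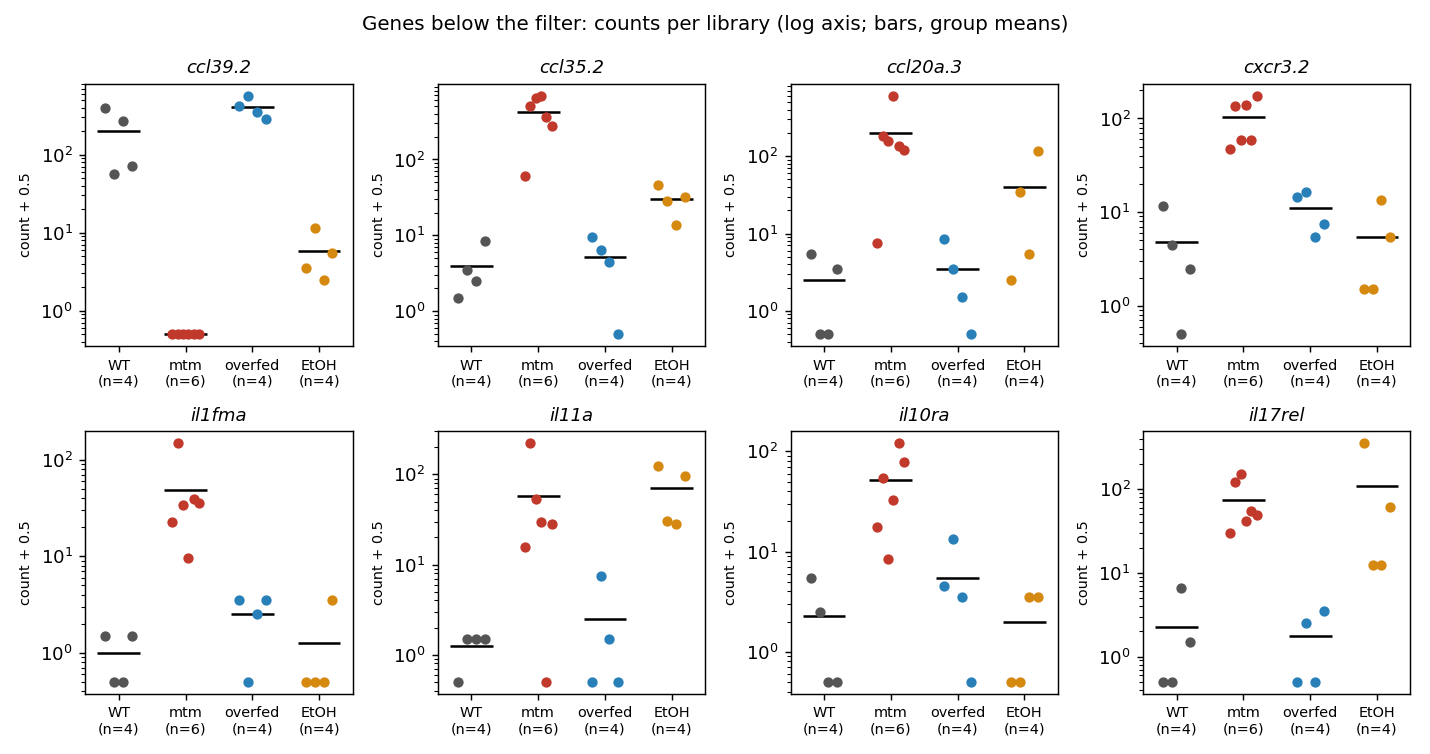
Counts of 8 genes below the filter in each library, on log axes of count + 0.5, with group means as bars. *ccl39.2* has 0 counts in all 6 mtm libraries, and *ccl35.2*, *cxcr3.2* and *il1fma* have every mtm library above every WT library.

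As the panels of low counts show, the genes called higher below the filter were near 0 in WT. The filter selects for this, since a gene with reads in the mtm libraries misses it only when several other libraries are low. *ccl35.2*, the second gene of the *ccl35* family, was called in mtm as *ccl35.1* was. *ccl35.2* stood at 0.0650, 0.310, 0.144 and 0.681 CPM in WT libraries 1 to 4, at 6.54 to 55.3 with a median of 26.1 in the mtm libraries, at 0.468, 0.293, 0.266 and 0 in the overfed libraries and at 2.68, 2.6, 1.02 and 2.48 in the EtOH libraries. All mtm libraries were above all EtOH libraries and all EtOH libraries above all WT libraries, at 6.65 ± 0.87 (SE, edgeR adjusted p = 5.5e-05) in mtm, 2.86 ± 0.78 (SE, edgeR adjusted p = 0.0437) in EtOH and 3.79 ± 0.72 (SE, edgeR adjusted p = 0.00706) for mtm against EtOH. The EtOH call was lost without WT 1, WT 2, WT 3 or any one EtOH library (adjusted p = 0.0517 to 0.172). *ccl20a.3* stood at 0.325, 0, 0 and 0.255 CPM in WT libraries 1 to 4, at 0.750 to 48.4 with a median of 8.15 in the mtm libraries, at 0.416, 0.147, 0.0665 and 0 in the overfed libraries and at 0.116, 3.16, 0.392 and 8.91 in the EtOH libraries. *ccl20a.3*, of the family of the CCR6 ligand CCL20, was called in mtm at 7.07 ± 1.39 (SE, edgeR adjusted p = 0.002), with mtm R1 the highest, and had a log2 fold change of 4.21 ± 1.36 (adjusted p = 0.0929) in EtOH. *cxcr3.2* encodes a chemokine receptor of zebrafish macrophages. *cxcr3.2* stood at 0.715, 0.414, 0 and 0.170 CPM in WT libraries 1 to 4, at 2.93 to 11.1 with a median of 5.65 in the mtm libraries, at 0.728, 0.782, 0.333 and 0.505 in the overfed libraries and at 0.0582, 0.0929, 1.02 and 0.387 in the EtOH libraries. All mtm libraries were above all others, at 4.28 ± 1.0 (SE, edgeR adjusted p = 0.00733) against WT and 3.95 ± 1.01 (SE, edgeR adjusted p = 0.0356) against EtOH. The latter was lost without mtm 2, mtm R1, mtm R3, EtOH 1, EtOH 2 or EtOH 4 (adjusted p = 0.0509 to 0.103). Its neighbour *cxcr3.3*, which takes up the same ligands in zebrafish, was at 0.16 ± 0.61 in mtm. *il1fma*, an interleukin-1 family member, was at 0.716 to 6.87 CPM in mtm and at most at 0.0852 CPM in WT and 0.232 CPM in EtOH. WT libraries held 2 counts of it in all and EtOH libraries 3, so the ratio of summed levels was 77.1 in mtm against WT (95% exact interval 21.2 to 640.0) and 54.4 against EtOH (18.4 to 265), intervals that cover counting error only. It was called against both (adjusted p = 0.00297 and 0.0125), the latter lost without EtOH 3 (adjusted p = 0.0534).

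Ligands and receptors of the interleukin-6 and interleukin-17 families were also among the genes of low counts. *il11a* encodes interleukin-11, which signals through gp130. *il11a* stood at 0, 0.103, 0.0718 and 0.0852 CPM in WT libraries 1 to 4, at 0 to 10.3 with a median of 1.96 in the mtm libraries, at 0, 0.342, 0.0665 and 0 in the overfed libraries and at 7.27, 2.79, 2.2 and 7.44 in the EtOH libraries. WT held 3 counts in all, and the ratio to WT of the summed levels was 62.4 in mtm (21.2 to 304) and 88.0 in EtOH (29.8 to 429). It was called in both (edgeR adjusted p = 0.0152 and 0.0163), with all EtOH libraries above WT and mtm R2 at 0. The mtm call was lost without WT 1, WT 2 or mtm 2 (adjusted p = 0.0515 to 0.0662) and the EtOH call without WT 1, WT 2, EtOH 1 or EtOH 4 (0.0523 to 0.0780). *il11b* had a log2 fold change of 2.88 ± 1.67 (adjusted p = 0.309) in mtm. *il17rel*, an interleukin-17 receptor-like gene, was called in mtm (5.13 ± 1.28, adjusted p = 0.0109) with each library left out, and in EtOH (5.41 ± 1.41, adjusted p = 0.0328), the latter lost without WT 1, WT 2, WT 4, EtOH 1 or EtOH 4 (0.0501 to 0.141). *il17rel* stood at 0, 0, 0.431 and 0.0852 CPM in WT libraries 1 to 4, at 2.77 to 7.51 with a median of 3.78 in the mtm libraries, at 0, 0.0978, 0 and 0.217 in the overfed libraries and at 20.4, 1.11, 0.941 and 4.65 in the EtOH libraries. All mtm and all EtOH libraries of *il17rel* stood above WT. *il6* had no count in the WT libraries, 4 of 6 mtm libraries with a count (at most 0.536 CPM) and 3 of 4 EtOH libraries (at most 1.51 CPM), and it was not called. Its EtOH mean was 11-fold and its mtm mean 3.02-fold a floor of 3 counts over the WT group. Such a ratio bounds the WT side only and leaves out the spread of the other group. EtOH 1 held 26 counts of *il6* and EtOH 2 held 0. *il10*, also without a count in WT, had means of 3.24-fold the same floor in mtm and 6.56-fold in EtOH, and was not called. *il17c* and *il21*, with no count in WT, were called in mtm, with means of 11-fold and 25-fold that floor. Libraries mtm 1, 2, 3, R1, R2 and R3 held 1, 0, 29, 12, 0 and 25 counts of *il17c*. For *il21* the counts in the same order were 3, 70, 34, 16, 0 and 41. Both calls were lost on leaving out any one WT library, and on leaving out mtm 3, mtm R1 or mtm R3, and for *il21* also mtm 2 (adjusted p = 0.0553 to 0.135). *il10ra* was called in mtm (4.38 ± 1.37, adjusted p = 0.0417), lost without WT 2, WT 3, WT 4, mtm R1, mtm R2 or mtm R3 (0.0667 to 0.135). *il13ra2* (3.37 ± 1.58, adjusted p = 0.193) and *il2rga* (3.98 ± 1.69, adjusted p = 0.145), the decoy receptor of interleukin-13 and the shared gamma chain, were not called in mtm. The 43 genes below the filter that were not called in any comparison were 18 chemokine ligands, 7 chemokine receptors, 8 interleukin ligands and 10 interleukin receptors, and 33 of them stayed under 5 CPM in every library. One of them was *ccr9a*, a receptor of the CCL25 family of ligands, at 0.910, 2.48, 0.216 and 0.255 CPM in WT and 3.38 to 12.8 with a median of 5.89 in the mtm libraries, all of which were above WT (2.73 ± 1.12, adjusted p = 0.128).

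The mtm libraries without and with resubmission labels were also tested apart against the same 4 WT libraries. R1 was kept together with R2 and R3, whose labels bear a later date. Of the 20 genes called higher in mtm, which were chosen on both submissions, 15 were called with the first submission alone and 16 with the resubmitted libraries alone. Only 11 were called in each of these fits. *ccl25b*, *cxcl18a.1*, *cxcl18b*, *cxcr4b* and *il16* lost the call with the first submission alone (edgeR adjusted p = 0.06845 to 0.2046). *ccl19a.1*, *ccl38.6*, *il20ra* and *il4r.1* lost it with the resubmitted libraries alone (0.05475 to 0.08957). The share of all genes called in these fits was not counted. In a further fit the mtm libraries of the same replicate number were summed. There *il16* lost its call in mtm and *cxcl20* its call in mtm against EtOH. *ackr4b* gained a call in mtm and *ccl34a.4* in mtm against EtOH. *cxcl18a.1* was at a mean of 1.78 CPM in the first submission and 10.5 CPM in the resubmitted one, and *il17rc* was at 8.98 and 19.6 CPM. Of the 10 genes below the filter called in mtm, 6 held under every alternative. The calls of *il11a* and *il21* were lost with the resubmitted libraries alone (edgeR adjusted p = 0.103 and 0.111). That of *il10ra* was lost with the first submission alone (0.230), and that of *il17c* with either (0.121 and 0.0534).

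Most macrophage, neutrophil and pan-leukocyte markers that passed the filter were called higher in mtm livers, and fewer were in EtOH livers. The shares of all genes called higher were 10.1% in mtm and 4.66% in EtOH. Macrophage markers summed to 31.3 to 59.5 CPM in WT, 200.1 to 402 CPM in mtm, 32.9 to 35.6 CPM in overfed and 60.1 to 106 CPM in EtOH livers, and 7 of 8 that passed the filter were called higher in mtm and 3 of 8 in EtOH. Pan-leukocyte markers summed to 40.0 to 48.2 CPM in WT, 203 to 316 CPM in mtm, 37.2 to 40.3 CPM in overfed and 43.2 to 88.0 CPM in EtOH livers, with 5 of 5 called higher in mtm and 1 of 5 in EtOH. Of the neutrophil markers 9 of 10 were called higher in mtm and 4 of 10 in EtOH. The whole neutrophil list summed to 421 to 8343 CPM in WT, 952 to 5116 CPM in mtm, 337 to 849 CPM in overfed and 2508 to 5212 CPM in EtOH livers, and the mtm and EtOH libraries overlapped WT. Most of this sum came from *cpa5*, not called and at 123 to 7901 CPM in WT and 25.7 to 1471 CPM in mtm, and *lect2l*, called higher in both. Without these genes, left out after their levels had been seen to dominate the sum, the list summed to 30.8 to 102.95 CPM in WT, 336 to 539 CPM in mtm, 31.4 to 38.3 CPM in overfed and 131 to 248 CPM in EtOH livers. The place of mtm above EtOH depended on this cut. *lect2l* alone was at 591 to 3226 CPM in mtm and 1540 to 3086 CPM in EtOH, and in the whole list the mtm and EtOH sums overlapped. Lymphocyte markers were low, at 4.02 to 12.7 CPM in WT and 16.5 to 42.2 CPM in mtm, with 1 gene past the filter, not called, and *cd8a* at 0 in all mtm libraries. In bulk libraries, more leukocytes and more RNA of a gene per cell cannot be told apart, and the part of the leukocytes in the rise of the chemokine and interleukin genes was not tested.

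**Figure D5:**
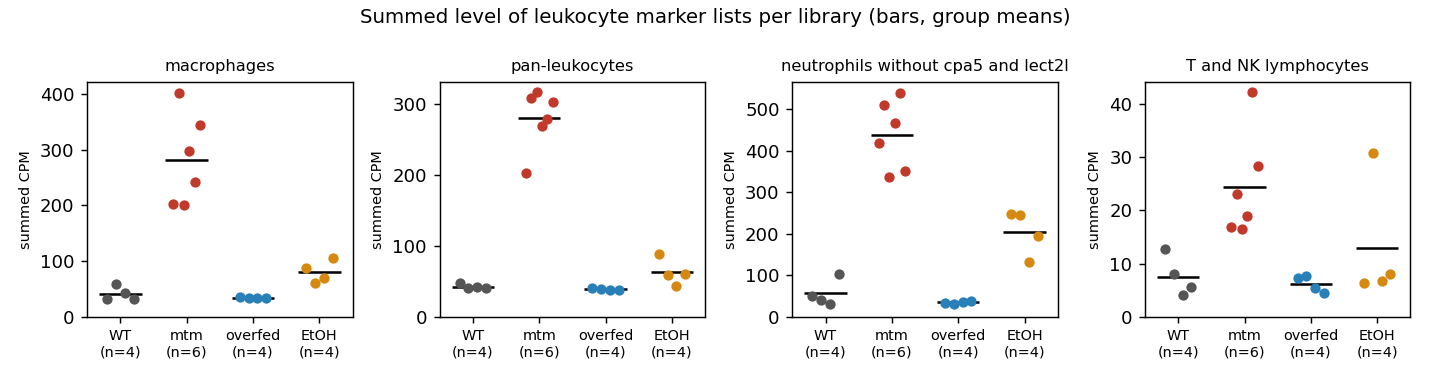
Summed CPM of leukocyte marker lists in each library, with group means as bars and axes from 0. The 6 mtm libraries lie above all WT, overfed and EtOH libraries in the macrophage panel (200.1 to 402 CPM), the pan-leukocyte panel (203 to 316 CPM) and the panel of neutrophil markers without *cpa5* and *lect2l* (336 to 539 CPM), and the EtOH libraries lie above WT for the macrophage markers and that neutrophil list. With *cpa5* and *lect2l* included, the neutrophil sums of mtm overlapped those of WT and EtOH.

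In the overfed livers, where 0 of 47 chemokine and interleukin genes were called, the macrophage sums lay inside the WT range. The pan-leukocyte sums of 3 of 4 overfed libraries and the whole neutrophil sums of overfed 2 and overfed 3 were below all WT libraries, and without *cpa5* and *lect2l* the neutrophil sums were inside the WT range. Duct cell markers were called higher for 5 of 8 genes in mtm and 2 of 8 in EtOH, and endothelial markers for 3 of 12 and 2 of 12, while 4 of 9 hepatocyte markers were called lower in mtm and 1 of 9 in EtOH. Of all genes, 10.1% were called higher and 8.59% lower in mtm, and 4.66% and 2.7% in EtOH. Stellate cell markers were higher for 3 of 8 genes in mtm and 1 of 8 in EtOH. Markers of skeletal muscle (1 of 8 higher in EtOH, 0 of 8 called in mtm), exocrine pancreas (0 of 10 in both) and erythrocytes (1 of 7 lower in mtm, 0 of 7 in EtOH) completed the lists. Pancreas sums were uneven, at 1141 to 64589.5 CPM in WT (highest in WT 4), 222 to 19696 CPM in mtm and 2679 to 27918 CPM in EtOH. Muscle sums ran from 62.1 to 334 CPM in WT, 13.6 to 1063 CPM in mtm and 326 to 4455 CPM in EtOH, highest in EtOH 2. The part of these cells was not tested.

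Genes tied to these signals were counted from lists outside the 100 genes. Beside these counts, 10.1% of all genes were called higher and 8.59% lower in mtm, and 4.66% and 2.7% in EtOH. As drawn up, the JAK and STAT list also held receptor genes such as *lifra* and *csf3r*, and *csf3r* was on the neutrophil list too. Of 16 genes of the JAK and STAT relay, through which gp130 and the interleukin-4 and interleukin-10 receptors signal, 7 were called higher and 0 lower in mtm and 4 higher and 1 lower in EtOH, with medians of 1.22 and 0.33 on the log2 scale. *socs3a* and *pim1*, which are induced by STAT3 in mammals, were at 4.48 and 2.26 in mtm and at 3.95 and 2.22 in EtOH. The feedback inhibitor *socs1a* was called in mtm (2.24), and *jak2a*, a kinase of the relay, was called lower in EtOH (-1.04). Of 17 genes between the Toll and interleukin-1 receptors and NF-kB, 6 were called higher and 0 lower in mtm and 2 higher and 1 lower in EtOH, at medians of 0.40 and 0.24. They included the NF-kB subunit *rel* (2.78 in mtm) and the inhibitor *nfkbiab* (2.07 in mtm and 2.26 in EtOH), and the gene lower in EtOH was *nfkbiz* (-1.33). Of 11 genes that relay chemokine receptor signals 5 were called higher in mtm and 2 in EtOH, at medians of 0.82 and 0.19. *rac2*, a leukocyte GTPase that the pan-leukocyte list also holds, was at 1.37 in mtm. Of 6 genes of the inflammasome and of cytokine processing, 1 was called higher in mtm (*pycard*, an inflammasome adaptor, 2.23) and 0 in EtOH, at medians of -0.19 and 0.33. The 8 genes of this list in the data summed to 55.8 to 82.2 CPM in mtm and 68.6 to 119 CPM in WT. Of 11 acute phase targets of interleukin-6, 2 were called higher in mtm (*steap4* 1.73 and *cebpb* 1.45) and 6 in EtOH, at medians of 0.48 and 1.16. Among the 6 were *hamp*, the gene of the iron hormone hepcidin (2.71), and *fosl1a* (2.91). In overfed livers 0 genes of these 5 lists were called.

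Several of these genes neighbour each other in tandem arrays. Of the 100 genes 97 had an entry of the same symbol in RefSeq (assembly GRCz12tu, used for gene order only), and 13 pairs of them were next to each other among protein-coding genes. In the run *ccl38.6*, *ccl38a.5* and *ccl38a.4*, *ccl38.6* was called higher in mtm, and *ccl38a.5* (2.39 ± 1.33) and *ccl38a.4* (0.82 ± 1.46) were not, the former at a fold change no smaller than that of *ccl38.6* (2.02 ± 0.48). *ccl34a.4*, at 5.92 in mtm, lies next to *ccl34a.3* (2.36 ± 1.61, not called), *ccl19a.1* next to *ccl19a.2* (0.25 ± 1.63, not called), and *cxcl20* next to *cxcl11.1* (0.78 ± 2.04, not called). In the run *cxcl19*, *cxcl8b.3* and *cxcl8b.1* no gene was called. Differences between neighbours were not tested.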

How the data were processed

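The authors trimmed adapters with Trim Galore 0.6.6, checked reads with FastQC 0.11.09, quantified transcripts of GRCz11 with Salmon and deposited, for each gene, estimated counts rounded to integers and not normalized. Reads that fit several copies are divided by Salmon, and counting by strand is not stated in the sources used here. The genes described and the marker and pathway lists were chosen with earlier results of these data known.

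Counts were scaled by TMM and tested with edgeR 4.0.16 in R 4.3.3 (quasi-likelihood, Benjamini-Hochberg) in one fit of the 18 libraries with the replicate number as covariate, as in the study's methods, on the 11489 genes with at least 5 reads in at least 15 libraries. The fit was tested on simulated data. Values of every library, fold changes and tests were given for up to 3 called genes per role, comparison and direction by adjusted p and for a set list, and other names were chosen after their values were seen. Alternatives were DESeq2 1.42.0, its size factors, other filters, no covariate, other sets of libraries and leaving out each library. Gene order came from RefSeq (GRCz12tu). Python 3.11.15 and matplotlib 3.10.9 made tables and figures.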

Additional observations from a re-analysis of the deposited data

Results flagged for a closer look

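Among 120 pairs of a gene and a group, 5 had 1 library far from the others of its group by Dixon's test, where chance gives about 1 in 20. *ccl35.1* was at 63.35 CPM in mtm 1 and at 295 to 611 CPM in the other mtm libraries. *ccl25b* was at 5.41 CPM in overfed 4 and at 8.73 to 9.38 CPM in the other overfed libraries. *ccl34a.4* was at 0.4656 CPM in overfed 3 against 1.51 to 1.52 CPM, *ccl35.2* at 1.02 CPM in EtOH 3 against 2.48 to 2.68 CPM, and *il1fma* at 0.232 CPM in EtOH 4 against 0 in the other EtOH libraries. With those libraries tied at 0, any count of *il1fma* in EtOH 4 would have been flagged, so the rate of 1 in 20 does not apply to it.

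For 7 genes the difference from WT was itself different between mtm and EtOH livers, by the direct test of mtm against EtOH in edgeR. The log2 difference was 4.01 for *ccl35.1* (adjusted p = 0.00233), 3.11 for *il34* (0.0145) and 0.93 for *cxcl20* (0.0447) among the genes that passed the filter. Among the genes below it, the difference was 3.79 for *ccl35.2* (0.00706), 3.95 for *cxcr3.2* (0.0356), 6.62 for *il1fma* (0.0125) and -5.74 for *ccl39.2* (0.0139), where the last is a fitted value against a group at 0 and no bound. Under every alternative, 0 of the 3 genes that passed the filter and 0 of the 4 below it were called. With the first mtm submission alone *ccl35.2* (edgeR adjusted p = 0.0502), *ccl39.2* (0.0530), *cxcl20* (0.0853) and *cxcr3.2* (0.157) lost the call.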

How the results depend on the processing

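Of the 20 genes called higher in mtm, 10 were called under every alternative, as were 4 of 10 in EtOH and 0 of 3 in mtm against EtOH. Leaving out 1 library at a time gave 12 to 20 genes higher and 0 to 1 lower in mtm, 5 to 10 higher in EtOH and 1 to 5 higher in mtm against EtOH. DESeq2 called 23 of the 47 genes higher and 1 lower in mtm, 17 higher in EtOH and 8 higher in mtm against EtOH. The share of all genes that DESeq2 called was not counted. With the filter of any count in 4 libraries or with filterByExpr, 1 gene, *ccl39.2*, was lower in each of mtm, EtOH and mtm against EtOH, and 6 were higher in mtm against EtOH. With only the compared groups fitted, 0 were higher in mtm against EtOH. Of 87 results on single genes 3 changed sign, in 5 refits in all, and none of the 3 was called. *cxcl12b* in EtOH was at -0.413 without EtOH 2 (up to 1.586 with another library left out), and in mtm against EtOH at 0.814 without EtOH 2 (down to -1.174). *cxcl18a.1* in mtm against EtOH was at -0.483 with the first mtm submission, -0.0945 without mtm R2 and -0.003575 without EtOH 2 (up to 1.639). The cause of these changes was not tested.

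Same-numbered libraries of different groups did not deviate together (30 pairs, correlations -0.229 to 0.337, 7 above 0.1, and 6 of 18 libraries closest to their own number), so the number is a covariate and no pairing. Without this replicate block 22 genes were higher and 1 lower in mtm, 15 higher in EtOH, 4 higher in mtm against EtOH and 0 called in overfed livers. The share of all genes called without the block was not counted. For genes with few counts in WT, such as *il6* and *il10*, a missing call does not show that levels were the same.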

Other observations

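Some genes below the filter had their level in a single library, without a call. *il17d*, an interleukin-17 family ligand, was at 10.7 CPM in mtm R2 and at most at 0.955 CPM elsewhere. *il12bb*, which encodes a subunit of interleukin-12, was at 6.53 CPM in mtm R2 and at most at 1.401 CPM elsewhere. *il12a*, its partner subunit, was at 12.2 CPM in EtOH 4 and at most at 1.54 CPM elsewhere. mtm R2 was the library with the fewest genes detected, 12957. These genes were picked after their values were seen.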
